A study of Homo sapiens with 9 samples.

Results

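The 44 genes described here encode proteins of mitosis: centromere and kinetochore subunits, the spindle checkpoint, the chromosomal passenger complex, the kinases and cyclins of mitotic entry, partners of the anaphase-promoting complex, mitotic kinesins, spindle and cytokinesis factors, and TOP2A and MKI67. They were taken by gene name from poly(A)-selected RNA sequencing of HEK293T cells, and all 44 were found among 58735 genes listed. All 44 also passed the count filter into the 18319 genes tested. HEK293T is a human embryonic kidney line that expresses the SV40 large T antigen, a viral protein that binds p53 and the retinoblastoma family. Each library came from cells of the genotype PRPS1-HA-dTAG with PRPSAP1-V5-BromoTag, in which both proteins bear a degron, and the DMSO cells bear them too. Cells received dTAG47 at 500 nM, which targets the tagged PRPS1 for degradation, AGB1 at 500 nM, which targets the tagged PRPSAP1, or DMSO, each for 24 h, with 3 libraries a group. PRPS1 makes phosphoribosyl pyrophosphate, the sugar donor of nucleotide synthesis, and PRPSAP1 is an associated protein of that enzyme. The labels do not say whether the line is a single clone or whether replicates were separate cultures, so p-values measure library-to-library spread alone, possibly technical. Cells without the tags are not analysed here.

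Mitotic transcripts accumulate in G2 and M phase and are largely removed or silenced in G1. In resting and early cycling cells the DREAM complex represses many of them, and later B-MYB, FOXM1 and NF-Y activate them, through promoter elements called CHR and CCAAT boxes. The kinetochore forms on centromeric chromatin marked by the histone variant CENPA and holds microtubules through the NDC80 complex. The spindle checkpoint delays anaphase until all kinetochores are attached, by restraining CDC20 and the anaphase-promoting complex.

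Total counts per library ranged from 27964128 to 44803380. Libraries differed in their dependence on transcript GC content. Spearman's rho between a gene's deviation from its mean and its GC content was taken across 11435 genes at 5 CPM or more (counts scaled to TMM-adjusted library sizes). It was 0.623, −0.329 and 0.0289 in dTAG47 1 to 3. In AGB1 1 to 3 it was −0.00625, −0.0269 and 0.0497, and in DMSO 1 to 3 −0.378, −0.280 and 0.271. Genes are not independent replicates, so these values describe the libraries. Of the epithelial markers KRT18 stood at 49.1 ± 6.49, 54.5 ± 5.02 and 52.3 ± 1.91 CPM with dTAG47, AGB1 and DMSO (SD, n = 3 each), whereas KRT19 had at most 3 reads in any library. KRT8 stood at 33.4 ± 0.488, 27.4 ± 1.78 and 33.3 ± 1.76 CPM (edgeR adjusted p = 0.366 with AGB1). EPCAM and CDH1 were low, at 1.69 ± 0.544, 2.47 ± 0.284 and 2.24 ± 0.941 CPM for EPCAM and 6.81 ± 0.839, 6.61 ± 0.297 and 8.21 ± 0.761 CPM for CDH1. Of 14 markers of other cell types, MYH6 had no read in any library and PTPRC at most 1. The count filter was passed by 3, COL1A1 and GFAP among them. With dTAG47 2 of these 3 had positive values. The remaining one had a log2 fold change of −0.57, with an unadjusted p under 0.05 in edgeR's test. With AGB1 3 of the 3 had negative values, from −0.24 to −0.03. The smallest edgeR adjusted p of the 3 was 0.678 with dTAG47 and 0.782 with AGB1. COL1A1 stood at 29.003 ± 3.22, 24.6 ± 1.70 and 27.3 ± 2.70 CPM with dTAG47, AGB1 and DMSO, and GFAP at 1.02 ± 0.246, 0.689 ± 0.235 and 0.708 ± 0.268 CPM. Of 5 markers of the HEK293T line (VIM, NES, NEFL, NEFM and CHGB), 4 had positive values with dTAG47 and 3 with AGB1. At an unadjusted p under 0.05 in edgeR's test, 2 of the 5 were higher with AGB1, where 3.55% of all genes were. Their smallest edgeR adjusted p was 0.307 with AGB1 and 0.839 with dTAG47. The part of marker levels in the results below was not tested. The degraders act on protein, so RNA does not check depletion: transcripts of PRPS1 differed from DMSO by 0.09 (dTAG47) and 0.08 (AGB1) on the log2 scale, and those of PRPSAP1 by 0.01 and −0.02.

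Promoters of 37 of the 44 genes were given by RefSeq (build GRCh38.p14), with 47 annotated starts. In the 250 bases before the start, the CHR letters TTTGAA or TTCGAA, read on both strands, occurred at 25 of these 47 starts (53.2%), against 14.3% of all 35116 starts given. CCAAT occurred at 36 of 47 (76.6%), against 32.0% of all starts, and both motifs at 22 (46.8%), against 5.05%. The 47 starts belong to 37 genes and some overlap each other, and a match describes the letters and not a bound site. The stretches below, chosen after the levels were seen, are those of CENPE, which fell with AGB1, of ASPM and ECT2, which had negative values with both compounds, and of KIF11, KIF4A and MKI67, whose fold changes were nearer 0. Each is the last 150 bases before both the RefSeq start and the GENCODE gene start, 5′ to 3′ on the strand of the gene, with TTTGAA and CCAAT matches of either strand in capitals (a reverse match reads TTCAAA or ATTGG).
CENPE: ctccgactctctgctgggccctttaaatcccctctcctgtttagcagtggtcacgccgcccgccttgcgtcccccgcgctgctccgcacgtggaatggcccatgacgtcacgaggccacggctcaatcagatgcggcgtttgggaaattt
ASPM: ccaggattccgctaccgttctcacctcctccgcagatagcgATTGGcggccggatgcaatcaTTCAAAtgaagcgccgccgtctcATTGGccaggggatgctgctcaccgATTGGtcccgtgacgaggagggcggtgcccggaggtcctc
ECT2: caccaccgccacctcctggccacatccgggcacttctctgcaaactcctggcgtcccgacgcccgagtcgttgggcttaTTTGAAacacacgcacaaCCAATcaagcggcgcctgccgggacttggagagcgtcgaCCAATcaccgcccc
KIF11: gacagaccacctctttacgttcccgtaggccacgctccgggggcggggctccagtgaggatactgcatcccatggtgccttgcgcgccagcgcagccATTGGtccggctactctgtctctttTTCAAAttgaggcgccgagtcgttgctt
KIF4A: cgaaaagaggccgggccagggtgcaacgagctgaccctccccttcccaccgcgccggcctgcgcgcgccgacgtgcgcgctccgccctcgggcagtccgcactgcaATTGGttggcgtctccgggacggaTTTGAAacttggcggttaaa
MKI67: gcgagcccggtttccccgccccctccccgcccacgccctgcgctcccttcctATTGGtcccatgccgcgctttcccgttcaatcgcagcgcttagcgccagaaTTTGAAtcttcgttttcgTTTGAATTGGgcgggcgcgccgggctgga
They lie at chr4:103198410-103198559 (CENPE, minus strand), chr1:197146695-197146844 (ASPM, minus), chr3:172750532-172750681 (ECT2, plus), chr10:92592980-92593129 (KIF11, plus), chrX:70289940-70290089 (KIF4A, plus) and chr10:128126424-128126573 (MKI67, minus). The CENPE stretch holds neither motif, which says only that these letters are absent from it. The 250-base windows of NDC80, NUF2 and KIF2C also hold neither. With dTAG47 the log2 fold changes were −0.09 for NDC80, −0.18 for NUF2 and −0.07 for KIF2C. With AGB1 they were −0.22, −0.17 and −0.04. A link between these motifs and the fold changes was not tested. The ASPM and ECT2 stretches hold both motifs, as do those of KIF11, KIF4A and MKI67. In MKI67 the second TTTGAA shares 1 letter with the reverse CCAAT that follows it.

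Most of the mitotic genes were readily counted in these dividing cells. The mean over the 9 libraries was at least 100 CPM for 27 of the 44 genes, and for 2510 of the 18319 genes tested. These CPM are not scaled for length, so the 2 counts do not compare levels. CENPE and ASPM, with 9444 and 10887 exonic bases, averaged 178 and 194 CPM but ranked 35 and 36 of 44 per kilobase. Levels per length of all tested genes are not given here. Per kilobase of exon, counting all annotated exonic bases of a gene, CCNB1 led with 124 ± 3.34 CPM per kb (SD over 9 libraries). The longest transcript can be shorter, with 914 of 1286 bases for UBE2C and 1777 of 2038 for CDC20. The order of genes therefore depends on the length used, and levels per transcript length were not compared. CCNB1 encodes cyclin B1, the activating partner of CDK1 at mitotic entry. CDC20, the activator of the anaphase-promoting complex, followed with 111 ± 4.02, and UBE2C, a ubiquitin-conjugating enzyme of that complex, with 102 ± 5.28 CPM per kb. The ranges of 1 SD around CDC20 and UBE2C overlapped. TOP2A, the topoisomerase that untangles mitotic chromosomes, had 88.8 ± 5.62 CPM per kb and BIRC5 had 79.2 ± 3.76.

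Within complexes these levels per length were unequal. Of the NDC80 complex, SPC25 stood at 21.6 ± 1.29 CPM per kb and NUF2 at 20.1 ± 1.63, whereas SPC24 and NDC80 stood at 11.98 ± 1.06 and 11.9 ± 1.23. By this length SPC24 and NDC80 did not differ beyond their spread. Their longest transcripts have 2315 and 2172 bases, against 2839 and 3600 exonic bases, so their order depends on the length used. Of the passenger complex, BIRC5 was above AURKB (46.2 ± 1.397), CDCA8 (38.6 ± 2.34) and INCENP (29.8 ± 1.19). The lowest levels among readily counted members belonged to CDC25C, KNL1, KIF18A and TTK, with 7.90 to 9.17 CPM per kb.

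**Figure D1:**
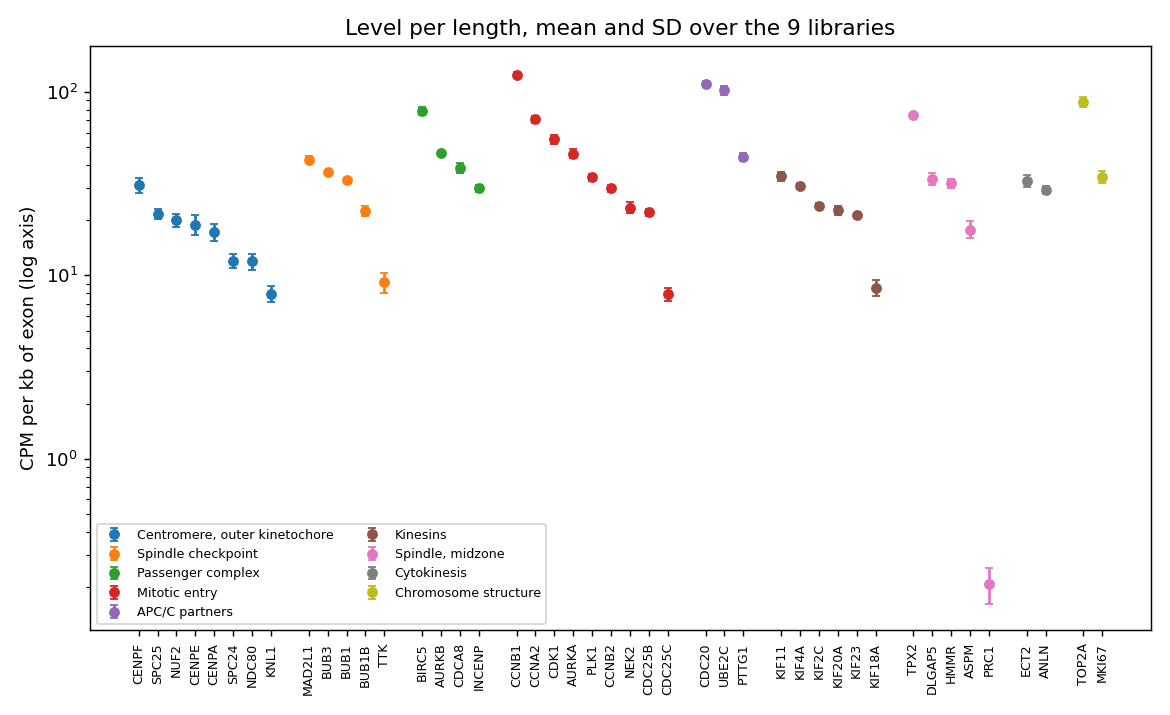
Level of each of the 44 genes by role, in CPM per kilobase of exon on a log axis; points are means and bars SDs over the 9 libraries. CCNB1 is highest at 124 CPM per kb, and PRC1 stands apart at 0.208.

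Among the 44 mitotic genes CENPE fell with AGB1, and no other member passed edgeR's test with either compound. With dTAG47, 0 of 44 members passed an adjusted p of 0.05 in edgeR's quasi-likelihood test (Benjamini-Hochberg over 18319 genes), where 0.06% of all genes passed (0.0273% fell and 0.0328% rose). DESeq2 and limma-voom also called 0, and 6 members had an unadjusted p under 0.05, each lower (by that measure 3.62% of all genes were lower, 3.65% higher and 7.28% either). With AGB1, CENPE fell and 0 members rose, where 0.0491% of all genes fell and 0.0546% rose. By an unadjusted p under 0.05, 7 members were lower and 0 higher, against 4.21% lower, 3.55% higher and 7.76% either over all genes. These 7 are 15.9% of the members. Without AGB1 3 the count was 4 lower, and without DMSO 1 or DMSO 3 there was 1 member higher. The shares of all genes given here belong to the fit of all 9 libraries and not to these omissions.

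Fold changes are on the log2 scale, treated over DMSO. The median over the members was −0.04 with dTAG47, where 34 of 44 values were negative, and −0.03 with AGB1, where 28 were. Over all tested genes the medians were −0.000974 and −0.000924, with 50.3% negative in each comparison. Both comparisons share the 3 DMSO libraries. The 95% interval of the fold change lay within −0.3 and 0.3 for 36 members with dTAG47 and 35 with AGB1. A smaller share of cells in mitosis and less RNA per mitotic cell cannot be told apart in such bulk samples.

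**Figure D2:**
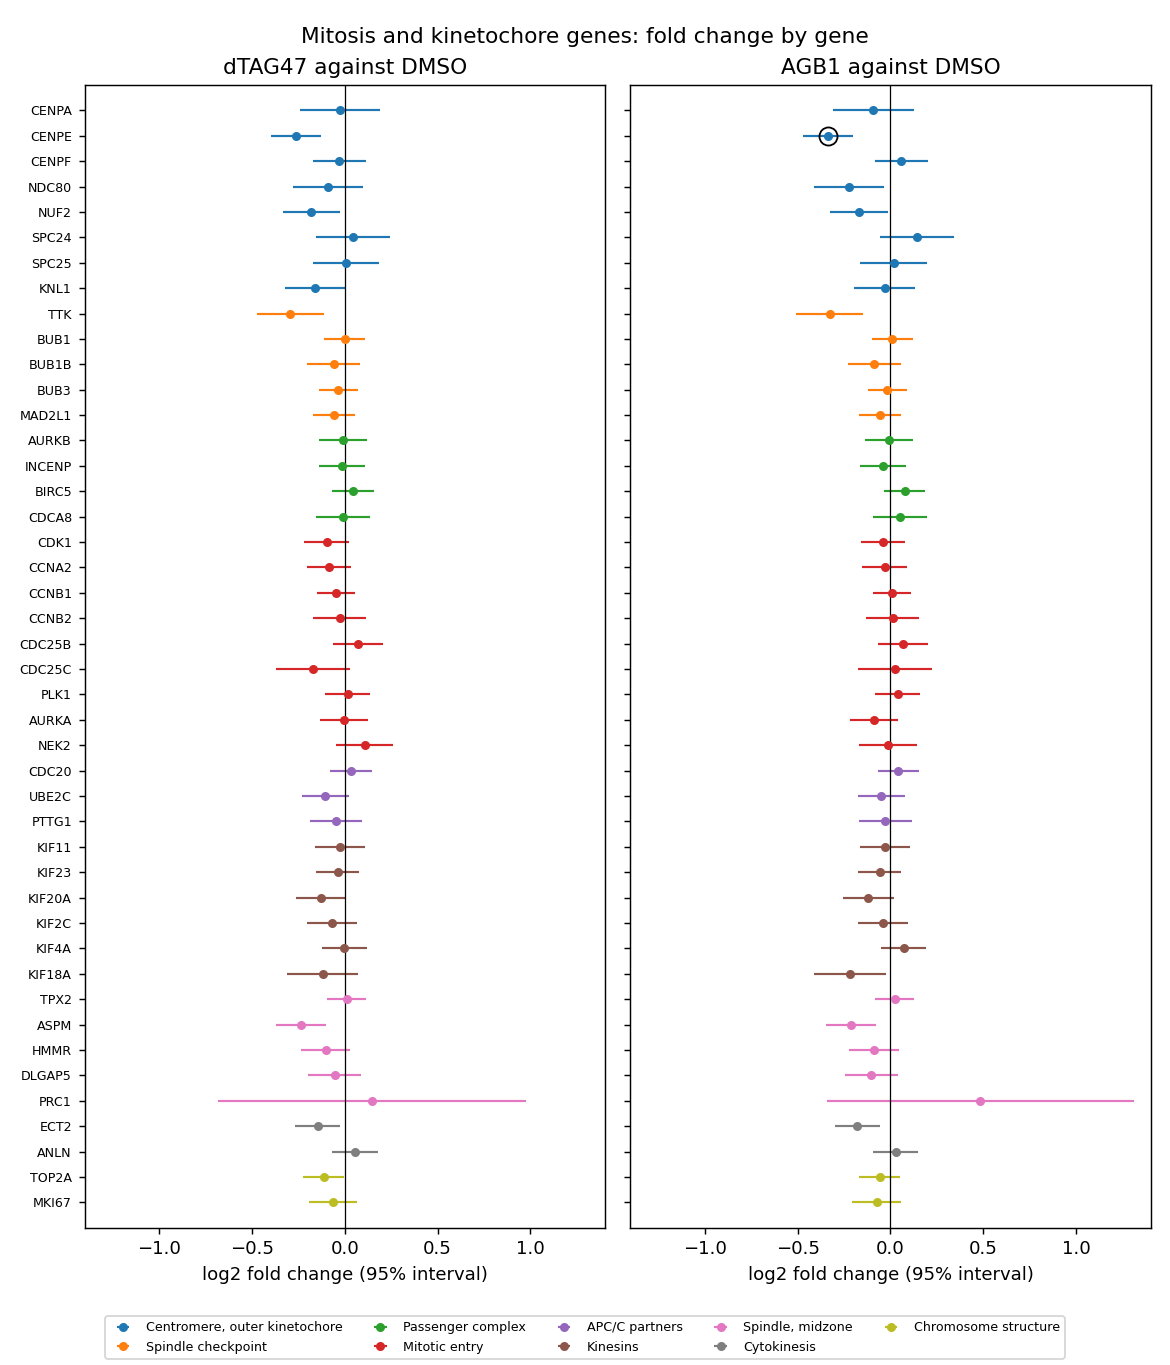
Log2 fold change of each gene with its 95% interval, dTAG47 against DMSO on the left and AGB1 against DMSO on the right, coloured by role; a ring marks the adjusted p under 0.05. CENPE with AGB1 (−0.34) is ringed, and PRC1 has the widest interval.

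Of the 8 centromere and outer kinetochore genes, 6 had negative values with dTAG47 and 5 with AGB1. CENPE (ENSG00000138778, chromosome 4, 103105806 to 103198409, minus strand; positions here are GRCh38) encodes the kinesin that carries chromosomes to the spindle equator. It stood at 159.7, 172 and 179 CPM in the dTAG47 libraries, 154, 179.8 and 151 CPM in the AGB1 libraries, and 214, 193 and 204 CPM in the DMSO libraries. Every treated library lay below every DMSO library, the nearest being AGB1 2. CENPE fell by 0.34 with AGB1 (SE 0.07, edgeR adjusted p = 0.0227), with 162 ± 15.8 CPM against 204 ± 10.8 CPM in DMSO (SD, n = 3 each). With dTAG47 the log2 fold change was −0.26 (SE 0.07, adjusted p = 0.181, 95% interval −0.39 to −0.13). The AGB1 call ended without AGB1 1 (adjusted p = 0.304), AGB1 3 (0.281), DMSO 1 (0.105) or DMSO 2 (0.0560), while the fold change kept its sign, from −0.42 to −0.29 over the 9 omissions of a library. With the GC trend of each library removed the AGB1 value was −0.28 (adjusted p = 0.0139).

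The NDC80 complex binds the ends of microtubules, and NUF2 and NDC80 form its microtubule-facing arm. NUF2 (chromosome 1, 163266576 to 163355764, plus strand) stood at 64.9, 63.7 and 65.2 CPM in the dTAG47 libraries, 69.0, 67.3 and 58.7 CPM in the AGB1 libraries, and 68.0, 75.4 and 75.9 CPM in the DMSO libraries. The dTAG47 libraries lay below all DMSO libraries, and AGB1 1 overlapped DMSO 1. Its log2 fold change was −0.18 with dTAG47 (SE 0.07, edgeR adjusted p = 0.619) and −0.17 with AGB1 (SE 0.08, adjusted p = 0.575). NDC80 itself (chromosome 18, 2571511 to 2616635, plus strand) stood at 36.9, 46.3 and 46.5 CPM in the dTAG47 libraries, 40.3, 41.7 and 36.3 CPM in the AGB1 libraries, and 42.9, 47.9 and 47.2 CPM in the DMSO libraries. All AGB1 libraries lay below DMSO (−0.22, SE 0.09, adjusted p = 0.538), and dTAG47 2 and 3 lay within the DMSO range (−0.09, SE 0.09, adjusted p = 0.889). Their partners SPC24 and SPC25 had 0.04 and 0.01 with dTAG47 and 0.14 and 0.02 with AGB1.

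CENPF, a large outer kinetochore protein and the most counted member of this group, stood at 343, 379 and 338 CPM in the dTAG47 libraries, 387, 374 and 366 CPM in the AGB1 libraries, and 426, 338 and 318 CPM in the DMSO libraries. DMSO 1 was the highest of the 9, and the groups overlapped. CENPF differed from DMSO by −0.03 under dTAG47 (95% interval −0.17 to 0.12) and by 0.06 under AGB1 (−0.09 to 0.20). KNL1, the scaffold that recruits checkpoint kinases to the kinetochore, had −0.16 and −0.03, and CENPA had −0.03 and −0.09, with edgeR adjusted p from 0.687 to 0.98 for these 4 values.

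Of the 5 checkpoint genes, TTK was the lowest against DMSO. TTK (chromosome 6, 80003887 to 80042527, plus strand) encodes MPS1, the kinase that starts checkpoint signalling at unattached kinetochores. It stood at 35.0, 41.5 and 41.5 CPM in the dTAG47 libraries, 36.4, 38.1 and 40.8 CPM in the AGB1 libraries, and 45.04, 48.9 and 50.7 CPM in the DMSO libraries. No treated library reached the lowest DMSO library. The log2 fold change was −0.29 with dTAG47 (SE 0.09, edgeR adjusted p = 0.352) and −0.33 with AGB1 (SE 0.09, adjusted p = 0.205), so neither passed over all genes. DESeq2 gave the AGB1 value an adjusted p of 0.0493. It called 32 genes higher and 49 lower with AGB1 over all genes, where edgeR called 10 and 9.

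None of the other checkpoint genes had an unadjusted p under 0.05 in edgeR's test. BUB3, an adaptor of the checkpoint kinases with further roles outside mitosis, stood at 282, 304 and 310.0 CPM in the dTAG47 libraries, 306, 302 and 298 CPM in the AGB1 libraries, and 307, 299.5 and 312 CPM in the DMSO libraries. Its groups overlapped, with intervals of −0.14 to 0.07 for dTAG47 and −0.12 to 0.09 for AGB1. BUB1, the kinase that BUB3 brings to kinetochores, varied by 2.46% over the 9 libraries (coefficient of variation), the smallest of the 44, against 12.7% for TTK. BUB1 had −0.00 with dTAG47 and 0.01 with AGB1. MAD2L1, which binds and restrains CDC20, had −0.06 and −0.05, and BUB1B, its partner in that inhibition, −0.06 and −0.09. BUB1B shares 10.2% of its exonic bases with the read-through gene BUB1B-PAK6.

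**Figure D3:**
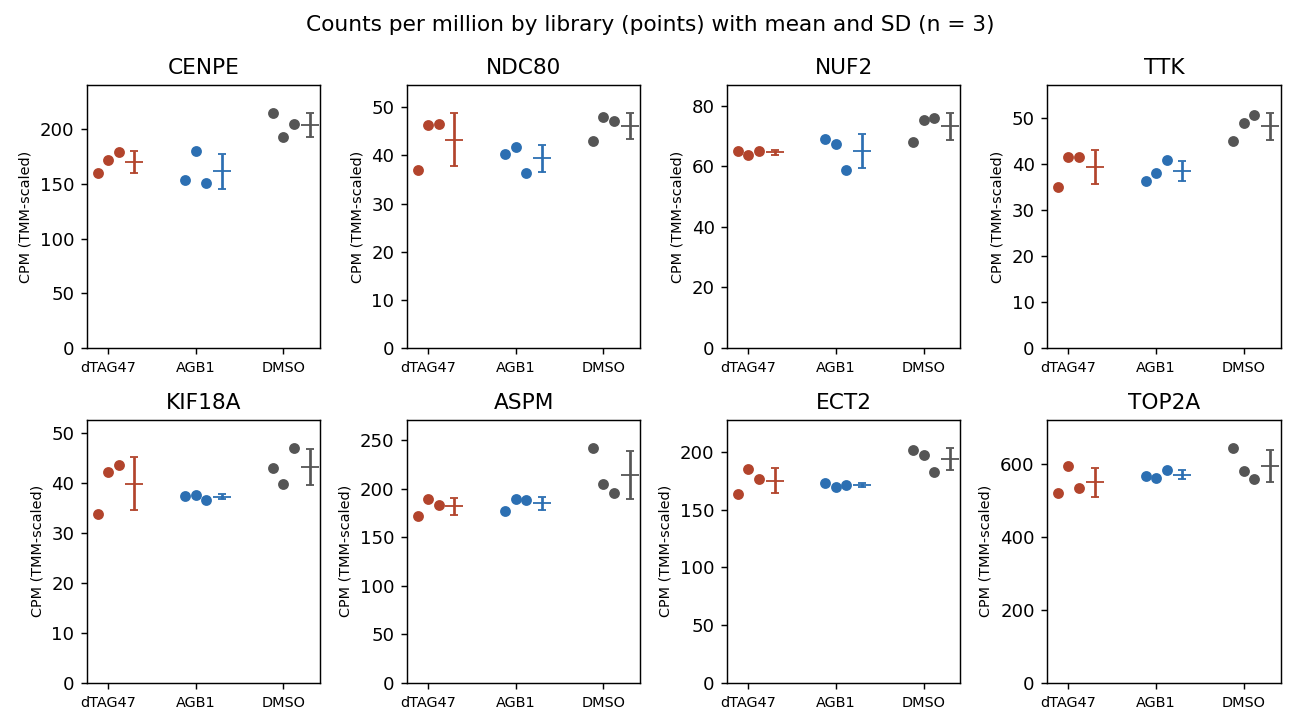
CPM of the 8 members with an unadjusted p under 0.05 in at least 1 comparison, by library; points are libraries in the order dTAG47, AGB1, DMSO, and bars show mean and SD (n = 3). CENPE, TTK and ASPM have every treated library below every DMSO library.

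The passenger complex, which corrects faulty kinetochore attachments, gave 0 calls in edgeR, DESeq2 and limma-voom with either compound. BIRC5 (survivin), its most counted subunit, stood at 323, 294 and 293 CPM in the dTAG47 libraries, 311, 309.6 and 308 CPM in the AGB1 libraries, and 273, 300.3 and 308 CPM in the DMSO libraries. The groups overlapped in both comparisons, at 0.05 under dTAG47 (95% interval −0.07 to 0.16) and 0.08 under AGB1 (−0.04 to 0.19). The kinase AURKB, its activator INCENP and the targeting subunit CDCA8 each had a rounded log2 fold change of −0.01 with dTAG47, and lay between −0.04 and 0.05 with AGB1. None of the 4 had an unadjusted p under 0.05 in edgeR's test in either comparison.

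The 9 genes of mitotic entry likewise gave 0 calls in either comparison by edgeR. Before removal of the GC trend, 0 also passed the unadjusted 0.05 level. DESeq2 and limma-voom called 0 as well. CCNB1 stood at 311, 312 and 309.9 CPM in the dTAG47 libraries, 328, 314 and 327 CPM in the AGB1 libraries, and 332, 314 and 317 CPM in the DMSO libraries. The dTAG47 libraries were all below DMSO, by little (−0.05, SE 0.05, edgeR adjusted p = 0.891), and the AGB1 libraries overlapped DMSO (0.01, interval −0.09 to 0.11). CDK1, the kinase that drives cells into mitosis, had −0.10 with dTAG47 (interval −0.22 to 0.02) and −0.04 with AGB1. Cyclins CCNA2 and CCNB2 had −0.08 and −0.03 with dTAG47, and −0.03 and 0.01 with AGB1. PLK1 and AURKA, kinases of centrosome maturation and spindle assembly, had 0.02 and −0.00 with dTAG47, and 0.04 and −0.09 with AGB1. PLK1 shares 12.5% of its exonic bases with genes on the opposite strand, and no source used here states whether counting used strand.

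The phosphatases that activate CDK1 differed in sign under dTAG47 without passing a test. CDC25B had 0.07 with dTAG47 and 0.07 with AGB1. CDC25C stood at 23.2, 23.3 and 26.2 CPM in the dTAG47 libraries, 27.5, 29.2 and 26.4 CPM in the AGB1 libraries, and 25.4, 27.9 and 28.4 CPM in the DMSO libraries. The dTAG47 and AGB1 libraries of CDC25C did not overlap, while the DMSO libraries overlapped both (−0.17 with dTAG47, edgeR adjusted p = 0.744). The centrosomal kinase NEK2 had 0.11 with dTAG47 and −0.01 with AGB1.

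Among partners of the anaphase-promoting complex, CDC20 stood at 234, 221 and 229 CPM in the dTAG47 libraries, 239.8, 229 and 219 CPM in the AGB1 libraries, and 213, 226 and 229 CPM in the DMSO libraries. The groups overlapped, with intervals of −0.08 to 0.15 for dTAG47 and −0.07 to 0.15 for AGB1. UBE2C had −0.10 and −0.05, and PTTG1 (securin), the inhibitor of separase that this complex destroys, had −0.05 and −0.03. None of these 3 genes had an unadjusted p under 0.05 in either comparison before removal of the GC trend.

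Of the 6 kinesins, 6 had negative values with dTAG47 and 5 with AGB1, and 0 passed in edgeR, DESeq2 or limma-voom. KIF11 (Eg5), which pushes spindle poles apart, stood at 156, 176 and 172 CPM in the dTAG47 libraries, 170.2, 162 and 170.1 CPM in the AGB1 libraries, and 188, 171 and 154 CPM in the DMSO libraries. DMSO 1 was highest and DMSO 3 lowest of the 9, so the treated libraries lay inside the DMSO range (−0.02 with dTAG47 and −0.03 with AGB1). KIF18A (chromosome 11, 28020620 to 28108308, minus strand), which dampens chromosome movements at the metaphase plate, stood at 33.9, 42.2 and 43.5 CPM in the dTAG47 libraries, 37.4, 37.6 and 36.6 CPM in the AGB1 libraries, and 42.9, 39.8 and 47.0 CPM in the DMSO libraries. All AGB1 libraries lay below DMSO (−0.22, SE 0.09, edgeR adjusted p = 0.562), and with dTAG47 only replicate 1 lay below the DMSO range (−0.12, SE 0.09, adjusted p = 0.838). The dTAG47 value was −0.0146 without dTAG47 1, −0.18 without dTAG47 3, −0.05 without DMSO 3 and −0.06 with the GC trend removed.

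KIF20A and KIF2C had dTAG47 libraries wholly below DMSO, at −0.13 and −0.07, and KIF23 had its AGB1 libraries wholly below, at −0.06. KIF20A and KIF23 act in the central spindle, and KIF2C depolymerises microtubules at centromeres. KIF4A, a chromosome-bound kinesin, had AGB1 libraries wholly above DMSO, at 0.07. It was the one member to do so. In all, 7 members had all dTAG47 libraries below DMSO and 0 above, where 5.82% and 5.8% of all genes did. With AGB1 7 were below and 1 above, where 6.75% and 6.56% of all genes were.

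Of the 5 spindle and midzone genes, 3 had negative values with each compound and 0 passed in edgeR, DESeq2 or limma-voom, with ASPM at an unadjusted p under 0.05 in both comparisons. ASPM (chromosome 1, 197084128 to 197146694, minus strand), which focuses microtubules at the spindle poles and whose loss causes microcephaly in humans, stood at 172, 190.0 and 183 CPM in the dTAG47 libraries, 177, 189 and 189 CPM in the AGB1 libraries, and 242, 205 and 196 CPM in the DMSO libraries. Every treated library lay below every DMSO library, with DMSO 1 far above the rest. The log2 fold change was −0.24 with dTAG47 (SE 0.07, edgeR adjusted p = 0.281) and −0.21 with AGB1 (SE 0.07, adjusted p = 0.321). Over the 9 omissions of a library these values ran from −0.30 to −0.14 and from −0.27 to −0.11. TPX2, the activator of AURKA on the spindle, stood at 259.7, 273 and 275 CPM in the dTAG47 libraries, 278, 261 and 275 CPM in the AGB1 libraries, and 271, 264 and 266 CPM in the DMSO libraries. The groups overlapped, with 95% intervals of −0.09 to 0.12 for dTAG47 and −0.08 to 0.13 for AGB1. The microtubule-associated HMMR and DLGAP5 had −0.10 and −0.05 with dTAG47, and −0.09 and −0.10 with AGB1.

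PRC1, which bundles microtubules of the spindle midzone, was barely counted. It had 34, 50 and 37 reads with dTAG47, 53, 39 and 40 with AGB1, and 22, 30 and 50 in DMSO. Of its exonic bases 57.6% also belong to the read-through gene AC068831.7 on the same strand, which had 342, 381 and 358 reads with dTAG47, 347, 283 and 233 with AGB1, and 442, 501 and 364 in DMSO. The sum of both, chosen after the counts were seen, had a log2 fold change of −0.34 with dTAG47 (SE 0.15, edgeR unadjusted p = 0.0343, adjusted p = 0.644). With AGB1 the sum had −0.42 (SE 0.15, edgeR unadjusted p = 0.0114, adjusted p = 0.458). Most reads of the sum were counted to AC068831.7, such as 442 of 464 in DMSO 1. How reads of the shared bases were assigned is not stated, so the sum cannot be credited to either gene. PRC1 alone (0.15 and 0.48) had the opposite sign to the sum, and its values are uncertain.

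In cytokinesis, ECT2 (chromosome 3, 172750682 to 172821474, plus strand), the exchange factor that activates RhoA at the division plane, stood at 163, 186 and 177 CPM in the dTAG47 libraries, 173, 169.5 and 172 CPM in the AGB1 libraries, and 202, 197 and 183 CPM in the DMSO libraries. The AGB1 libraries lay below all DMSO libraries and close together (−0.18, SE 0.06, edgeR adjusted p = 0.366). With dTAG47, replicate 2 overlapped DMSO 3 (−0.15, SE 0.06, adjusted p = 0.59). ANLN, an actin-binding scaffold of the contractile ring, had 0.06 with dTAG47 and 0.03 with AGB1.

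TOP2A (chromosome 17, 40388516 to 40417950, minus strand), the most counted member, stood at 519.7, 595 and 533 CPM in the dTAG47 libraries, 567, 562 and 584 CPM in the AGB1 libraries, and 644, 581 and 558 CPM in the DMSO libraries. The groups overlapped in both comparisons, at −0.11 with dTAG47 (SE 0.05, edgeR adjusted p = 0.681) and −0.06 with AGB1 (SE 0.05, adjusted p = 0.85). The dTAG47 value was −0.05 without DMSO 1, −0.08 without dTAG47 1, −0.18 without dTAG47 2 and −0.07 with the GC trend removed. MKI67, the coat protein of mitotic chromosomes known as Ki-67, ranged from 419 to 451 CPM with dTAG47, 412 to 446 CPM with AGB1, and 394 to 513 CPM in DMSO. Its log2 fold changes of −0.06 and −0.08 were smaller than the spread of its DMSO libraries.

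Set against each other, the compounds gave no call among the mitotic genes. In the direct test of dTAG47 against AGB1, 0 of 44 members passed by edgeR, DESeq2 and limma-voom, where 0% of all genes passed in edgeR. At the unadjusted 0.05 level 0 members were lower or higher, where 1.77% of all genes were lower, 2.25% higher and 4.02% either. Without dTAG47 1 there were 2 members higher, and without AGB1 2 there was 1 higher. With DESeq2, without dTAG47 2 or without dTAG47 3 there was 1 lower. With the GC trend removed there were 1 lower and 1 higher, and with a replicate block added to that 1 lower. The shares of all genes above belong to the main edgeR fit and not to these refits. The median was −0.01 over the members and 5.54e-05 over all genes. The 95% interval lay within −0.3 and 0.3 for 41 of 44. CENPE differed by 0.08 (−0.06 to 0.21), TTK by 0.03 (−0.15 to 0.22) and ASPM by −0.02 (−0.16 to 0.11). The 5 members whose dTAG47 libraries were all below the AGB1 libraries were CCNB1, KIF4A, KNL1, CDC25C and PRC1 (11.4%, where 5.1% of all genes were), and 0 members were all above, where 5.35% of all genes were.

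Several members with negative fold changes had transcripts of low GC content, and the libraries differed in GC dependence. The longest transcript had a GC content of 35.3% for CENPE, 37.1% for ASPM, 38.0% for ECT2 and 40.8% for TTK. CDC25C, at −0.17 with dTAG47, and KIF20A, at −0.13, had 47.6% and 48.4%. The median was 42.8% over the members and 47.9% over tested genes at 5 CPM or more, and 30 members lay below 47.9%. Across 43 members (PRC1 left out), Spearman's rho between GC content and log2 fold change was 0.545 with dTAG47 and 0.539 with AGB1. The members share their libraries, so these values are descriptions. With the GC trend of each library removed, rho was 0.224 with dTAG47 and 0.368 with AGB1, and the members' medians were −0.03 and −0.02. CENPE then had −0.19 and −0.28, TTK −0.26 and −0.31, and ASPM −0.17 and −0.16 with dTAG47 and AGB1. ECT2 had −0.09 and −0.14, and NUF2 −0.13 and −0.14. At the unadjusted 0.05 level 5 members were then lower and 1 higher with dTAG47, and 6 lower and 0 higher with AGB1. The higher one was NEK2, at 0.13. With dTAG47, ECT2, NUF2 and TOP2A no longer passed that level, whereas UBE2C (−0.11) and KIF20A (−0.13) now did. The shares of all genes at that level given above belong to the fit without this removal, so these counts have no such share beside them. At an edgeR adjusted p under 0.05, 8 of 18309 genes then rose and 14 fell with dTAG47. With AGB1 24 rose and 24 fell. The part of GC dependence in the remaining values was not tested.

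**Figure D4:**
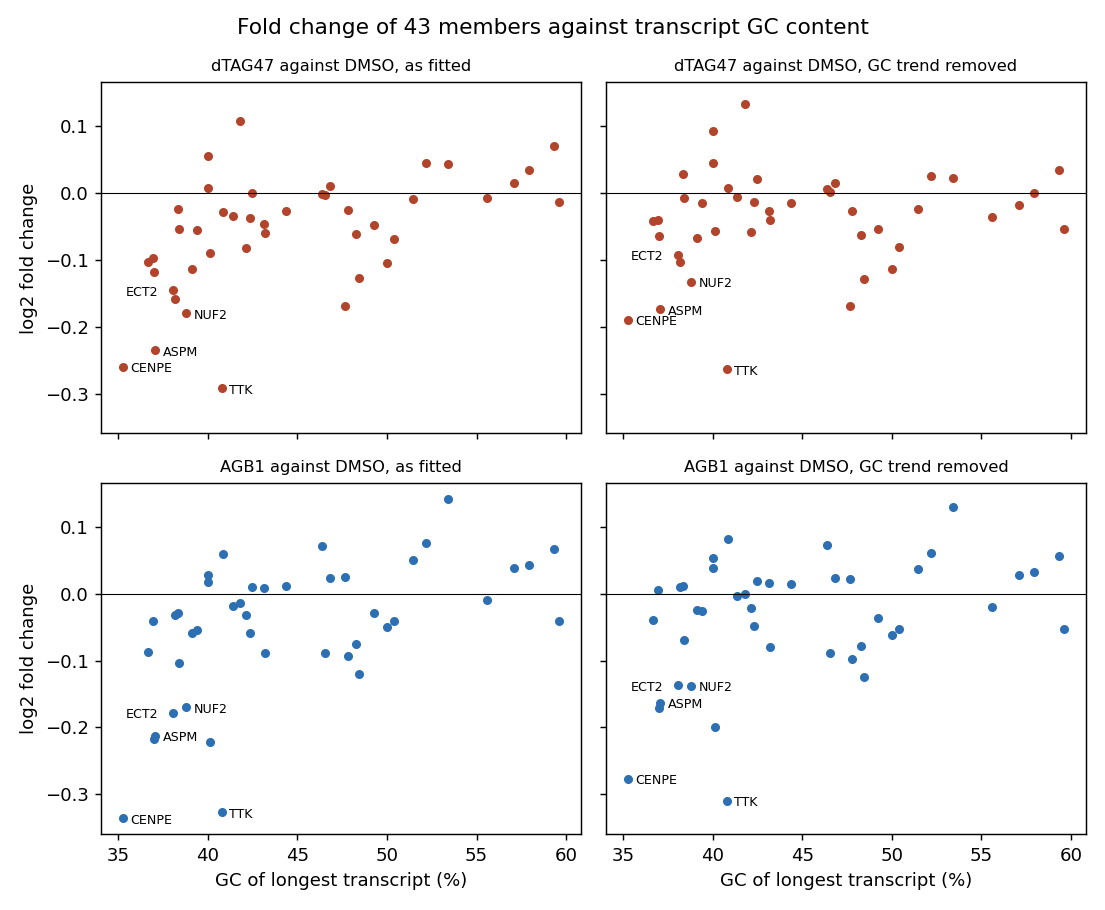
Log2 fold change of 43 members against the GC content of their longest transcript, for dTAG47 (top) and AGB1 (bottom), as fitted (left) and with the GC trend of each library removed (right). CENPE and TTK are the lowest points for AGB1 in both panels.

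By library, dTAG47 1 carried the lowest mitotic levels. Its median deviation over the 44 genes was −0.07 on the log2 scale, against 0.01 and −0.00 in dTAG47 2 and 3. The AGB1 libraries had 0.02, −0.02 and −0.02, and the DMSO libraries 0.01, 0.02 and 0.03. dTAG47 1 was also the library with the steepest GC trend, and with that trend removed its median deviation was −0.03. Without dTAG47 1 the members' median log2 fold change with dTAG47 was −0.02, and 4 members had an unadjusted p under 0.05 in edgeR's test. The share of all genes at that level is not given for that omission. Summed over the 44 genes, levels ran from 6589 to 6920.3 CPM with dTAG47, 6789.8 to 6904 CPM with AGB1 and 6879 to 7185 CPM in DMSO, so the ranges of both treatments overlapped that of DMSO.

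**Figure D5:**
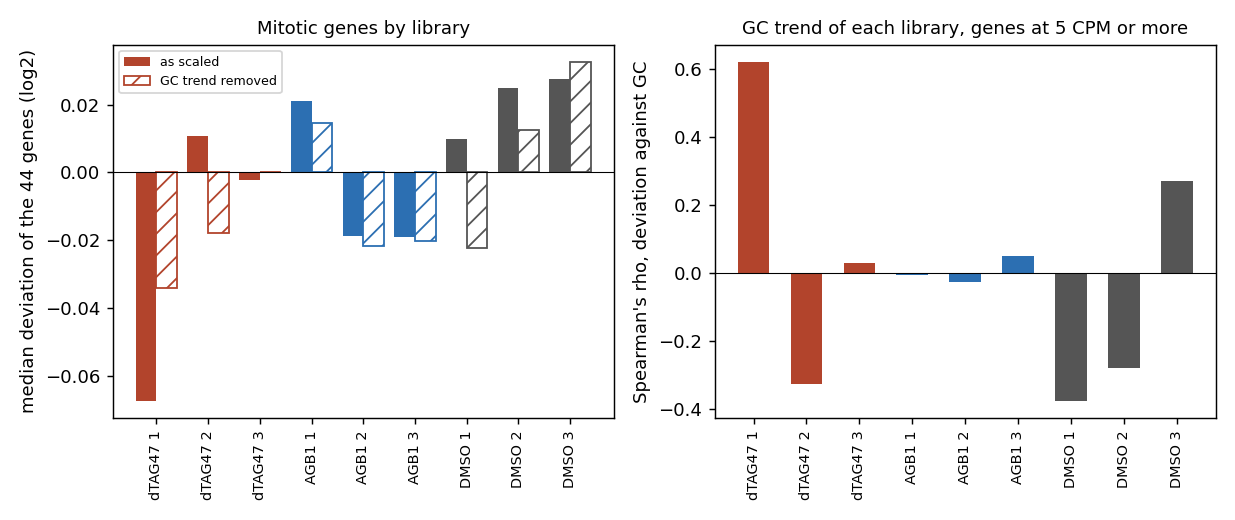
Left, median log2 deviation of the 44 genes in each library from their means over 9 libraries, as scaled (filled) and with the GC trend removed (hatched). Right, Spearman's rho between gene deviation and transcript GC content in each library. dTAG47 1 has the lowest bar on the left (−0.07) and the highest on the right (0.623).

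The wider mitotic machinery gave no call in edgeR's test. None of 127 further genes in 7 lists (inner kinetochore, other outer kinetochore and checkpoint, condensin and cohesin, the anaphase-promoting complex, other spindle and cytokinesis genes, centriole duplication, and mitotic regulators) passed with either compound. The lists were chosen with earlier results known. Their values, and those of the G1 and S phase genes below, are given without removal of the GC trend. The part of GC dependence in them was not tested. With dTAG47 9 of the 127 genes were lower and 4 higher at an unadjusted p under 0.05, and with AGB1 8 were lower and 5 higher. Over all genes 3.62% were lower and 3.65% higher with dTAG47, and 4.21% lower and 3.55% higher with AGB1. DESeq2 called KIF20B, a kinesin of cytokinesis, lower with AGB1, and limma-voom called 0. KIF20B averaged 79.7 ± 3.33 CPM with AGB1 and 93.0 ± 2.04 CPM in DMSO (−0.22, SE 0.06, edgeR adjusted p = 0.268).

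Condensin, cohesin and separase genes were negative in 14 of 18 with dTAG47 (median −0.07) and in 14 of 18 with AGB1 (median −0.07). The lowest adjusted p was that of STAG2, a cohesin subunit, at −0.23 with AGB1 (SE 0.06, edgeR adjusted p = 0.198) and −0.18 with dTAG47 (adjusted p = 0.414). Inner kinetochore and centromere genes were negative in 9 of 21 with dTAG47 (median 0.01) and in 10 of 21 with AGB1 (median 0.00). The steepest fold change among them was that of CENPQ with dTAG47, −0.43 (SE 0.13, edgeR adjusted p = 0.352). The smallest p among them with AGB1 was that of CENPX, at 0.18 (edgeR adjusted p = 0.585).

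Other outer kinetochore and checkpoint genes were negative in 13 of 16 with dTAG47 and in 11 of 16 with AGB1. MAD1L1, the kinetochore anchor of MAD2, had 0.26 with dTAG47 (SE 0.10, edgeR adjusted p = 0.518), and DSN1, a subunit of the MIS12 complex, −0.16 with AGB1 (adjusted p = 0.552). Centriole duplication genes were negative in 6 of 8 with each compound, with medians of −0.07 for dTAG47 and −0.10 for AGB1. Their smallest p values were those of CENPJ with dTAG47 (−0.25, edgeR adjusted p = 0.533) and CEP192 with AGB1 (−0.22, adjusted p = 0.523). Subunits and partners of the anaphase-promoting complex were positive in 11 of 17 with dTAG47 and in 10 of 17 with AGB1, with ANAPC10 at −0.39 (edgeR adjusted p = 0.591) and UBE2S at 0.13 (adjusted p = 0.665). Other spindle and cytokinesis genes were negative in 13 of 26 with dTAG47, where KIF14 had −0.20 (edgeR adjusted p = 0.541), and in 11 of 26 with AGB1.

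In the list of mitotic entry kinases and transcription factors, 13 of 21 were positive with dTAG47 (median 0.02) and 13 with AGB1 (median 0.03). FOXM1, an activator of G2/M genes named here for that role, averaged 162 ± 3.48 CPM with dTAG47, 150.4 ± 12.5 CPM with AGB1 and 147 ± 8.05 CPM in DMSO, with 0.14 for dTAG47 (SE 0.06, edgeR adjusted p = 0.662) and 0.03 for AGB1 (adjusted p = 0.939). The smallest p with each compound in this list was that of PKMYT1, an inhibitory kinase of CDK1, at 0.17 with dTAG47 (edgeR adjusted p = 0.645) and 0.19 with AGB1 (adjusted p = 0.523). Genes of G1 and S phase were positive in 17 of 24 with dTAG47 (median 0.04) and 18 of 24 with AGB1 (median 0.02), and 0 passed in edgeR, DESeq2 or limma-voom. At an unadjusted p under 0.05, 2 of them were higher with dTAG47 and 1 with AGB1, where 3.65% and 3.55% of all genes were. The smallest p values were those of E2F1 with dTAG47 (0.16, edgeR adjusted p = 0.646) and TYMS, thymidylate synthase, with AGB1 (0.22, adjusted p = 0.523).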

How the data were processed

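Poly(A)-selected RNA from 9 libraries was analysed, 3 per group. The authors deposited whole-number read counts per gene with gene lengths. The submitters' processing notes name HISAT2, DESeq2 and hg38. How reads were assigned to genes, and whether by strand, is not given in the sources used here. Groups were taken from the sample titles. All listed gene identifiers matched GENCODE 29, used for positions, transcript GC content and overlaps.

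From the deposited counts, genes were filtered with filterByExpr and fitted with edgeR 4.0.16 (R 4.3.3, TMM, quasi-likelihood F test, one coefficient per group over all 9 libraries), with Benjamini-Hochberg adjustment over 18319 genes and a threshold of 0.05. CPM values use TMM-adjusted library sizes. Total counts were 27964128 to 44803380, edgeR's common coefficient of variation between libraries was 11.0%, and the median SE of a log2 fold change was 0.09 for genes at 5 CPM or more. No molecular identifiers are stated, so counting precision covers counting error alone.

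The members, lists and tests were chosen with earlier results of these data known. A member was given with its 9 values where its unadjusted p was under 0.05 in a comparison or its mean CPM was the highest of its role; others are given as ranges or fold changes. From each wider list, genes past the threshold, or else the smallest p, were named. Alternatives were DESeq2 1.42.0, limma-voom (limma 3.58.1), other scalings and filters, the 2 groups alone, a replicate block, removal of each library's GC trend by lowess (span 0.3) and omission of each library. The fitting code was tested on simulated data. Same-numbered replicates were not treated as pairs. Promoter windows are from RefSeq. The summed level of the markers of other cell types is not reported here.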

Additional observations from a re-analysis of the deposited data

How the results depend on the processing

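The number of members called with dTAG47 was 0 in 9 of 10 alternatives and 1 with no filter on low counts, where CENPE had an adjusted p of 0.0280. Without that filter 21 of 33037 genes rose and 22 fell with dTAG47, where 6 and 5 did with it. With AGB1 the number was 1 in 9 of 10 alternatives and 2 with DESeq2, which added TTK (adjusted p = 0.0493). Over all 18319 genes DESeq2 called 32 higher and 49 lower with AGB1, where edgeR called 10 and 9. Leaving out each of the 9 libraries gave 0 to 1 calls with AGB1 and 0 with dTAG47. In the direct comparison all alternatives gave 0. With the replicate block the counts were 0 with dTAG47, 1 with AGB1 and 0 between the compounds, and over all genes 6 rose and 4 fell with dTAG47 and 9 rose and 8 fell with AGB1, against 6 and 5 and 10 and 9 without it; calls in the wider lists were not recomputed with the block. Same-numbered libraries correlated at −0.156 to 0.0715 and 3 of 18 correlated best with their own number. Over all alternatives the members' median log2 fold change ran from −0.05 to −0.02 with dTAG47 and from −0.04 to −0.02 with AGB1. Between the compounds it ran from −0.02 to −0.00. The alternatives refit the same libraries, so a steady sign is a description and no separate test. The members' median deviations in dTAG47 1 to 3 were −0.07, 0.01 and −0.00, a spread as wide as these medians. Leaving PRC1 out of the median and summing PRC1 with its read-through gene were chosen after seeing the data. With 3 libraries a group the 95% interval of a member's log2 fold change reached a median of 0.13 to either side, which limits what could be detected.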
